A study of Mus musculus with 42 samples.

Results

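Lungs of sleep-deficient mice (SD) are set here against lungs of home-cage mice (Ctrl) at Zeitgeber time 12 (ZT12), the hour at which the lights went off. Both groups were wild-type C57BL/6J mice with free access to food and water. For 2 days the SD mice were kept 20 h a day in SD cages and the Ctrl mice in home cages, the daily stay lasting from clock hour 14 until clock hour 10. Collection at 4 h steps over 24 h began at clock hour 8 (ZT0, lights on) and gave 42 RNA-seq libraries in 14 groups of 3. These hours do not settle whether ZT12 fell within or after the last cage stay. The ZT12 comparison rests on 3 SD and 3 Ctrl libraries. The labels call the replicates biological without saying whether a library is 1 mouse or a pool. The p-values therefore measure the spread between libraries of a group, pooled over all 42 libraries. The labels do not say how an SD cage acts on the mice, nor their age or sex. SD always names the group below, and the standard deviation is written s.d.

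The deposited table gave each of 54532 genes a level in FPKM, that is fragments normalised to the length of the gene and to the size of the library. The genes described are the 17080 whose mean FPKM over the 6 ZT12 libraries was at least 0.5. They held 99.63% of the reads at ZT12, and 13789 of them are protein coding. Because the mean was taken over both groups, 662 of these genes had an SD mean under 0.5 and 357 had a Ctrl mean under 0.5. The whole reads recovered from the FPKM came to 27285743 to 27434712 in the SD libraries and 26591557 to 28412325 in the Ctrl libraries, inside the range of 25285525 to 29790252 over all 42. Defining lung markers were high in both groups. Sftpc, the surfactant protein of alveolar type 2 cells, averaged 18400 FPKM in SD lungs and 16500 FPKM in Ctrl lungs, and Ager, a marker of alveolar type 1 cells, averaged 1020 FPKM in SD lungs and 862 FPKM in Ctrl lungs.

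The airways are lined by ciliated cells, which move mucus, by club cells, which secrete Scgb1a1 and detoxify chemicals, and by mucus-making secretory cells, which also release antimicrobial proteins. Lung cells carry a circadian clock in which Arntl and Clock drive the Per and Cry repressors and the receptors Nr1d1 and Nr1d2, and in nocturnal mice corticosterone peaks around the onset of darkness, the start of the active phase. White blood cells also pass through the lung with a daily rhythm, so the housing and the hour of day can both bear on lung RNA.

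About as many genes rose as fell in SD lungs at ZT12 on the deposited scaling, and the large changes were mostly falls. Mucous airway genes, immunoglobulin genes, cell-cycle genes, MHC class II genes and genes of motile cilia were lower in SD lungs. Neutrophil, platelet, immediate early and glucocorticoid-response genes were higher. Genes were tested with limma on log2(FPKM + 1), with 14 group means over the 42 libraries, and called where the p adjusted over the 17080 genes by Benjamini-Hochberg was under 0.05. Of the genes tested, 8462 were called, or 49.5%. The calls were 4173 genes higher in SD lungs (24.4%) and 4289 genes lower (25.1%). The balance rests on the median-of-ratios scaling that the FPKM carry, since scaling to total reads gave 3392 genes higher and 4969 genes lower. A difference of at least 1 in log2(FPKM + 1), which is 2-fold on that scale, was reached by 112 genes that rose (0.656%) and by 483 genes that fell (2.83%). The 3 SD values all lay above the 3 Ctrl values for 4832 genes (28.3%) and all below them for 4803 genes (28.1%). The median absolute difference was 0.179, while the median s.d. of a gene within a group was 0.0691 in SD lungs and 0.0658 in Ctrl lungs, on the same log2 scale. Differences below are SD minus Ctrl in log2(FPKM + 1) with their standard errors, and adjusted p-values are those of limma. On this scale a change of a gene near 0 is understated.

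The ranking of single genes passed over immunoglobulin genes, some of which fell by more than genes named here and are given further below. The 10 largest falls that remained were led by Reg3g, a secreted lectin that kills Gram-positive bacteria (chr6:78466269-78468872, mm10, minus strand). Its level was 0.668, 1 and 0.69 FPKM in the SD libraries, against 758, 800 and 772 FPKM in the Ctrl libraries. The difference was -8.77 ± 0.0649 (adjusted p = 2.4e-40), and the groups lay far apart with close replicates. Scgb3a1, a small secretoglobin secreted by airway cells (chr11:49663610-49665118, plus strand), stood at 111, 104 and 107 FPKM in SD lungs, against 3590, 3510 and 3640 FPKM in Ctrl lungs, a difference of -5.05 ± 0.0568 (adjusted p = 3.03e-35). Tff2, a trefoil peptide that stabilises mucus (chr17:31141049-31144282, minus strand), averaged 5.32 ± 0.698 FPKM in SD lungs and 386 ± 5.49 FPKM in Ctrl lungs (mean ± s.d., n = 3 each), a difference of -5.94 ± 0.116.

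Some of these genes were close to undetected in SD lungs. Itln1, a lectin that binds microbial sugars (chr1:171518122-171535294), had no read in the 3 SD libraries and 96, 102 and 94.7 FPKM in the Ctrl libraries. With a floor of 3 reads in each library, its level was at least 1060-fold lower in SD lungs. Gp2, a surface protein through which M cells take up bacteria (chr7:119442537-119459285), had 1 read over the 3 SD libraries and 20109 reads over the 3 Ctrl libraries. The ratio of Ctrl to SD was 20100, with a 95% interval of 3610 to 794000 that covers counting error only. Clca1, a secreted modulator of mucus and chloride transport (chr3:145003817-145032776), averaged 0.0161 FPKM in SD lungs and 104 FPKM in Ctrl lungs, a difference of -6.69 ± 0.0419 (adjusted p = 2.87e-42).

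The remaining genes among the 10 also had no overlap between the 3 SD and the 3 Ctrl values, as the rule for naming them required. Bpifb1, a secreted lipid-binding protein of the airway lining (chr2:154190818-154220369), averaged 1.59 FPKM in SD lungs and 114 FPKM in Ctrl lungs (-5.48 ± 0.0724). Cd177, a surface glycoprotein known from neutrophils (chr7:24743983-24760311), averaged 4.82 FPKM in SD lungs and 262 FPKM in Ctrl lungs (-5.50 ± 0.0939), although neutrophil genes as a group were higher in SD lungs. Jchain, which joins polymeric IgA and IgM (chr5:88519809-88527891), averaged 6 FPKM in SD lungs and 244 FPKM in Ctrl lungs (-5.14 ± 0.0929). AU040972, annotated as an antisense RNA (chr11:79481719-79484031), averaged 13.1 FPKM in SD lungs and 330 FPKM in Ctrl lungs (-4.56 ± 0.148). The sources used here do not give the handling of strand, so reads of AU040972 and of a gene on the opposite strand cannot be told apart.

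The 10 largest rises were smaller and were led by genes of neutrophils and of acute inflammation. Csf3r, the receptor for granulocyte colony-stimulating factor (chr4:126024550-126044440), stood at 64, 61.7 and 63.5 FPKM in SD lungs, against 11.5, 10.5 and 10.2 FPKM in Ctrl lungs, a difference of 2.45 ± 0.0424 (adjusted p = 4.69e-30). Cxcr2, the chemokine receptor that draws neutrophils (chr1:74153989-74161246), stood at 10.2, 11.5 and 10.9 FPKM in SD lungs, against 1.79, 1.77 and 1.37 FPKM in Ctrl lungs, a difference of 2.17 ± 0.0637. Il1b, the inflammatory cytokine interleukin 1 beta (chr2:129364570-129371139), stood at 23.5, 26.6 and 25.4 FPKM in SD lungs, against 6.15, 4.99 and 5.01 FPKM in Ctrl lungs, a difference of 2.04 ± 0.0668. In each of these 3 genes the lowest SD library stood far above the highest Ctrl library.

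Retnlg, a resistin-like protein of mouse granulocytes (chr16:48872621-48874496), averaged 127 ± 8.31 FPKM in SD lungs and 29.2 ± 0.597 FPKM in Ctrl lungs. Stfa2l1, a stefin-type protease inhibitor with close paralogs beside it (chr16:36156811-36161953), averaged 13.7 FPKM in SD lungs and 1.8 FPKM in Ctrl lungs (2.41 ± 0.168). The sources used here do not give the handling of reads that match several genes, so its level is uncertain. Asprv1, a retroviral-like aspartic protease (chr6:86628164-86629710), averaged 10.8 FPKM in SD lungs and 2.08 FPKM in Ctrl lungs, and Slfn4, a Schlafen gene of mouse myeloid cells (chr11:83175186-83190216), averaged 24.4 FPKM in SD lungs and 5.8 FPKM in Ctrl lungs. The other 3 were Pon1, a lactonase carried on lipoproteins (chr6:5168090-5193946, 2.01 ± 0.0458), Upk3b, a surface protein of mesothelium (chr5:136038496-136046487, 1.88 ± 0.057), and Fos, an immediate early transcription factor (chr12:85473890-85477273, 1.84 ± 0.0362). All 10 had 3 SD values above the 3 Ctrl values, which the choice of these genes required.

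**Figure D1:**
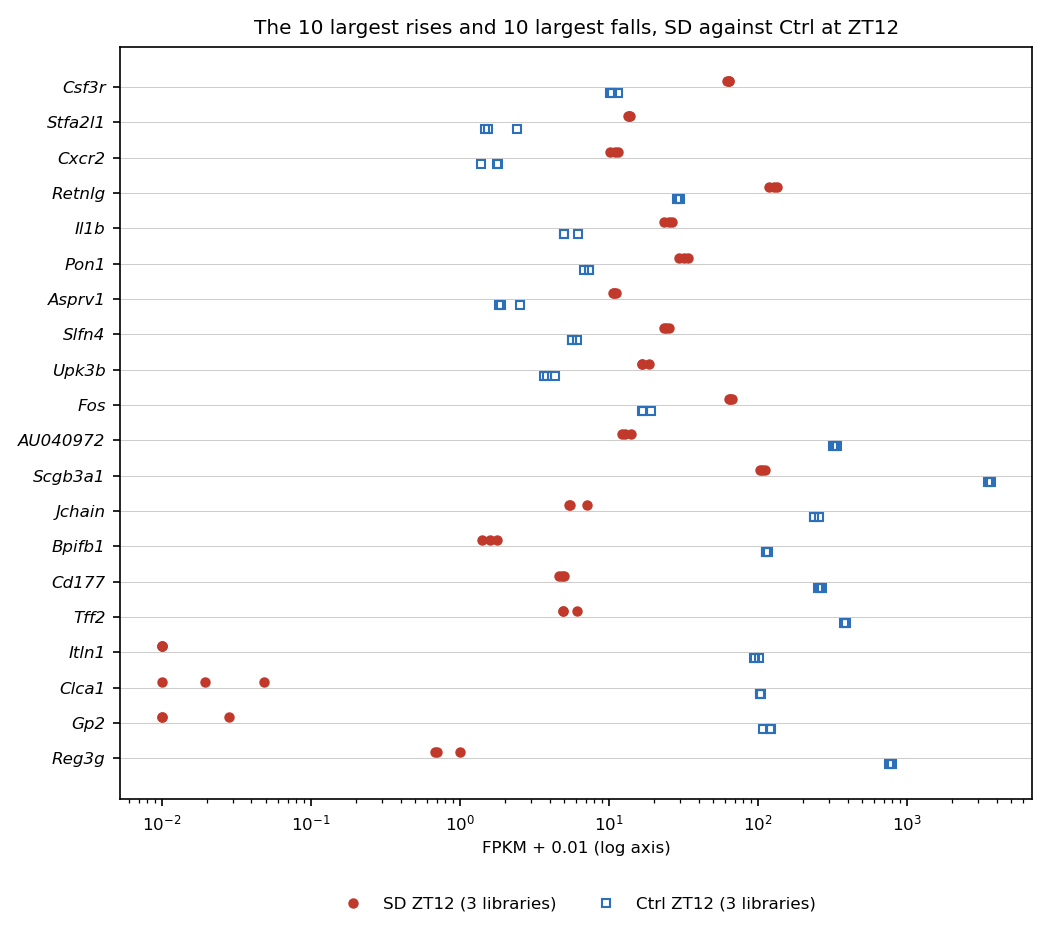
FPKM + 0.01 (log axis) of the 10 largest rises and the 10 largest falls in each of the 3 SD libraries and the 3 Ctrl libraries at ZT12, 1 point per library. Immunoglobulin genes were passed over in the ranking. Points of a group lie close together for most genes, but the SD points of Clca1 and Gp2, near 0 FPKM, are spread on this axis. The gap between the groups is widest for Reg3g, Gp2, Clca1 and Itln1.

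Mucous airway genes fell together. Of 14 tested genes of a mucous airway list, 13 fell in SD lungs and none rose, and their median difference was -3.43, beside a median of 0.00683 over all genes tested. Besides the genes given above, Muc5b, a gel-forming mucin, stood at 1.17, 1 and 0.982 FPKM in SD lungs, against 44.7, 45.5 and 41.7 FPKM in Ctrl lungs (-4.45 ± 0.0468). The remaining gene, Sec14l3, averaged 467 FPKM in SD lungs and 450 FPKM in Ctrl lungs and was not called. Scgb1a1, the main club cell secretion, went the other way. It averaged 67800 ± 1850 FPKM in SD lungs and 36400 ± 539 FPKM in Ctrl lungs and took 3.24% of reads in SD lungs and 1.80% in Ctrl lungs. Of 10 club cell genes, 5 rose, among them Cyp2f2, an airway cytochrome P450 (0.84 ± 0.0516), and Hp, haptoglobin (0.57 ± 0.047), and 3 fell, Scgb3a2 (-0.51 ± 0.0481) with Scgb3a1 and Reg3g. In bulk lung, fewer cells of a type and less RNA per cell cannot be told apart.

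Genes of motile cilia moved the same way with smaller differences. All 14 tested genes of a ciliated cell list fell, with a median of -0.72. Foxj1, the master regulator of motile cilia, stood at 47.2, 43 and 45.1 FPKM in SD lungs, against 98.6, 89.6 and 99.1 FPKM in Ctrl lungs (-1.07 ± 0.0735, adjusted p = 7.05e-14). Dnah5, a dynein heavy chain of the outer arm, averaged 2.82 FPKM in SD lungs and 5.77 FPKM in Ctrl lungs, and Ccdc40, which sets the spacing of axonemal dyneins, averaged 4.64 FPKM in SD lungs and 8.29 FPKM in Ctrl lungs. Tubb4b, a tubulin of cilia that other cells also use, averaged 148 FPKM in SD lungs and 193 FPKM in Ctrl lungs. In basal and squamous cell genes, 4 of 5 fell. Aqp3, a water and glycerol channel of basal cells, averaged 0.584 FPKM in SD lungs and 4.66 FPKM in Ctrl lungs. Krt5, the keratin that defines basal cells, had 1 read over the 3 SD libraries and 269 reads over the 3 Ctrl libraries, a ratio of 269 with a 95% counting interval of 47.9 to 10700. Krt15, another basal keratin, averaged 0.44 FPKM in SD lungs and 3.05 FPKM in Ctrl lungs.

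Immunoglobulin genes were the next large group of falls. All 12 tested constant region genes fell in SD lungs, with a median of -3.23. Ighg2b, an IgG constant region, stood at 1.43, 1.17 and 1.29 FPKM in SD lungs, against 449, 453 and 455 FPKM in Ctrl lungs (-7.62 ± 0.0892, adjusted p = 8.94e-35). Igkc, the kappa light chain, stood at 97, 104 and 107 FPKM in SD lungs, against 3360, 3550 and 3380 FPKM in Ctrl lungs (-5.05 ± 0.0722). Igha, the heavy chain of mucosal IgA, averaged 25 ± 0.186 FPKM in SD lungs and 547 ± 16.6 FPKM in Ctrl lungs. In all 3 genes the SD values were tightly grouped and far below the Ctrl values.

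The other IgG genes were Ighg2c (0.805 FPKM in SD lungs and 156 FPKM in Ctrl lungs), Ighg1 (2.58 FPKM in SD lungs and 199 FPKM in Ctrl lungs) and Ighg3 (0.0918 FPKM in SD lungs and 6.67 FPKM in Ctrl lungs). Ighm, made by naive B cells and by IgM plasma cells, averaged 35.3 FPKM in SD lungs and 146 FPKM in Ctrl lungs (-2.02 ± 0.0445), and Ighd, which marks naive B cells, averaged 16.8 FPKM in SD lungs and 24.2 FPKM in Ctrl lungs (-0.50 ± 0.113). Ighe averaged 0.168 FPKM in SD lungs and 1.18 FPKM in Ctrl lungs. The lambda genes fell as well, Iglc1 by 3.65, Iglc2 by 2.33 and Iglc3 by 1.95 on the log2 scale. These 3 are near copies of each other, so the split between them is uncertain. Of 136 variable segments tested, 127 fell and 2 rose, with a median of -2.93. Immunoglobulin genes together took 0.0277 ± 0.000986% of reads in SD lungs and 0.713 ± 0.00344% in Ctrl lungs.

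All 15 genes of a plasma cell list fell, with a median of -0.84. Mzb1, a chaperone of antibody secretion, averaged 6.58 ± 0.822 FPKM in SD lungs and 69.1 ± 4.74 FPKM in Ctrl lungs (-3.21 ± 0.0847). Pou2af1, a B lineage transcriptional coactivator, averaged 2.94 FPKM in SD lungs and 14.5 FPKM in Ctrl lungs, and Derl3, which exports misfolded proteins from the endoplasmic reticulum, averaged 1.37 FPKM in SD lungs and 7.72 FPKM in Ctrl lungs. Of 17 B cell genes, 16 fell, with a median of -1.0. Spib, a transcription factor of B cells, averaged 3.14 FPKM in SD lungs and 19.2 FPKM in Ctrl lungs, and Ms4a1, which encodes CD20, averaged 1.49 FPKM in SD lungs and 6.11 FPKM in Ctrl lungs. Of 10 genes of a germinal centre and lymphoid tissue list, 7 fell and 2 rose, with a median of -0.80. Cxcl13, the chemokine that gathers B cells into follicles, stood at 1.04, 1.43 and 1.55 FPKM in SD lungs, against 25.7, 27.6 and 24.1 FPKM in Ctrl lungs (-3.52 ± 0.123). Ubd, an inducible ubiquitin-like modifier, had 1 read over the 3 SD libraries and 709 reads over the 3 Ctrl libraries, a ratio of 709 with a 95% counting interval of 127 to 28000. Bcl6, the regulator of germinal centres that other cells also express, rose instead, with 7.87 FPKM in SD lungs and 5.32 FPKM in Ctrl lungs, as did Fas, a death receptor, with 47.8 FPKM in SD lungs and 29.9 FPKM in Ctrl lungs.

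Over the whole course the level of plasma cell and mucous genes varied with both time and housing. Group means of Ighg2b over the 6 other times were 0.216 to 1.2 FPKM in SD lungs and 0.904 to 897 FPKM in Ctrl lungs. Those of Muc5b were 0.589 to 12.9 FPKM in SD lungs and 1.06 to 40.8 FPKM in Ctrl lungs. The Ctrl means of Ighg2b were high at ZT8, ZT12, ZT16 and ZT24 (294, 452, 897 and 63 FPKM) and low at ZT0, ZT4 and ZT20 (0.959, 1.24 and 0.904 FPKM). At ZT12 all 3 Ctrl libraries carried these genes at a like level, so leaving out any 1 library left the differences in place. Whether the amount of airway or lymphoid tissue in the samples took part in these differences was not tested.

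T cell, natural killer cell and cytotoxic genes fell by less. Of 17 T cell genes, 15 fell and none rose, with a median of -0.52. Trac, the constant region of the T cell receptor alpha chain, averaged 6.59 FPKM in SD lungs and 13.9 FPKM in Ctrl lungs, and Cd4 averaged 1.44 FPKM in SD lungs and 3.73 FPKM in Ctrl lungs. Of 12 natural killer cell genes, 8 fell and none rose, with a median of -0.27. Gzma, the granule protease granzyme A, averaged 12.6 FPKM in SD lungs and 19.2 FPKM in Ctrl lungs, and Nkg7, a granule protein, averaged 6.24 FPKM in SD lungs and 11.6 FPKM in Ctrl lungs. All 7 genes of a T helper 1 and cytotoxic list fell. Ccl5, a chemokine of cytotoxic lymphocytes, averaged 11.7 FPKM in SD lungs and 24.1 FPKM in Ctrl lungs.

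Antigen presentation genes fell almost as a block. All 10 MHC class II genes were lower, with a median of -1.05. H2-Aa, a class II alpha chain, stood at 121, 126 and 123 FPKM in SD lungs, against 252, 258 and 258 FPKM in Ctrl lungs (-1.05 ± 0.0384, adjusted p = 6.68e-21). Cd74, the invariant chain, averaged 528 FPKM in SD lungs and 1050 FPKM in Ctrl lungs, and Ciita, the class II transactivator, averaged 1.86 FPKM in SD lungs and 4.93 FPKM in Ctrl lungs. Of 12 MHC class I genes, 11 fell, with a median of -0.47. B2m, the light chain of class I molecules, averaged 659 FPKM in SD lungs and 1190 FPKM in Ctrl lungs, and Nlrc5, the class I transactivator, averaged 2.84 FPKM in SD lungs and 5.41 FPKM in Ctrl lungs. H2-K1, a classical class I heavy chain, averaged 363 FPKM in SD lungs and 686 FPKM in Ctrl lungs. It has close paralogs, and its level may include their reads.

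Of 25 interferon response genes, 17 fell and 1 rose, with a median of -0.38. Cxcl9, a chemokine induced by interferon gamma, stood at 0.132, 0.182 and 0.133 FPKM in SD lungs, against 5.08, 4.44 and 4.15 FPKM in Ctrl lungs (-2.27 ± 0.0857). Igtp and Irgm1, immunity-related GTPases, averaged 11.7 and 6 FPKM in SD lungs, against 25.8 and 10.9 FPKM in Ctrl lungs. Ifit3, an antiviral gene induced by type I interferon, was the 1 that rose, with 45.7 FPKM in SD lungs and 40 FPKM in Ctrl lungs (0.19 ± 0.0476). Of 18 genes of a type 2 response list, 14 fell. This list shares genes with the mucous airway list, Itln1 and Fcgbp among them. Retnla, a resistin-like protein of mouse type 2 inflammation, averaged 161 FPKM in SD lungs and 626 FPKM in Ctrl lungs (-1.96 ± 0.0696), and Il33, an alarmin, averaged 16.8 FPKM in SD lungs and 36.9 FPKM in Ctrl lungs (-1.09 ± 0.0508). Gata3, the transcription factor of type 2 lymphocytes, rose, with 3.31 FPKM in SD lungs and 2.38 FPKM in Ctrl lungs.

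**Figure D2:**
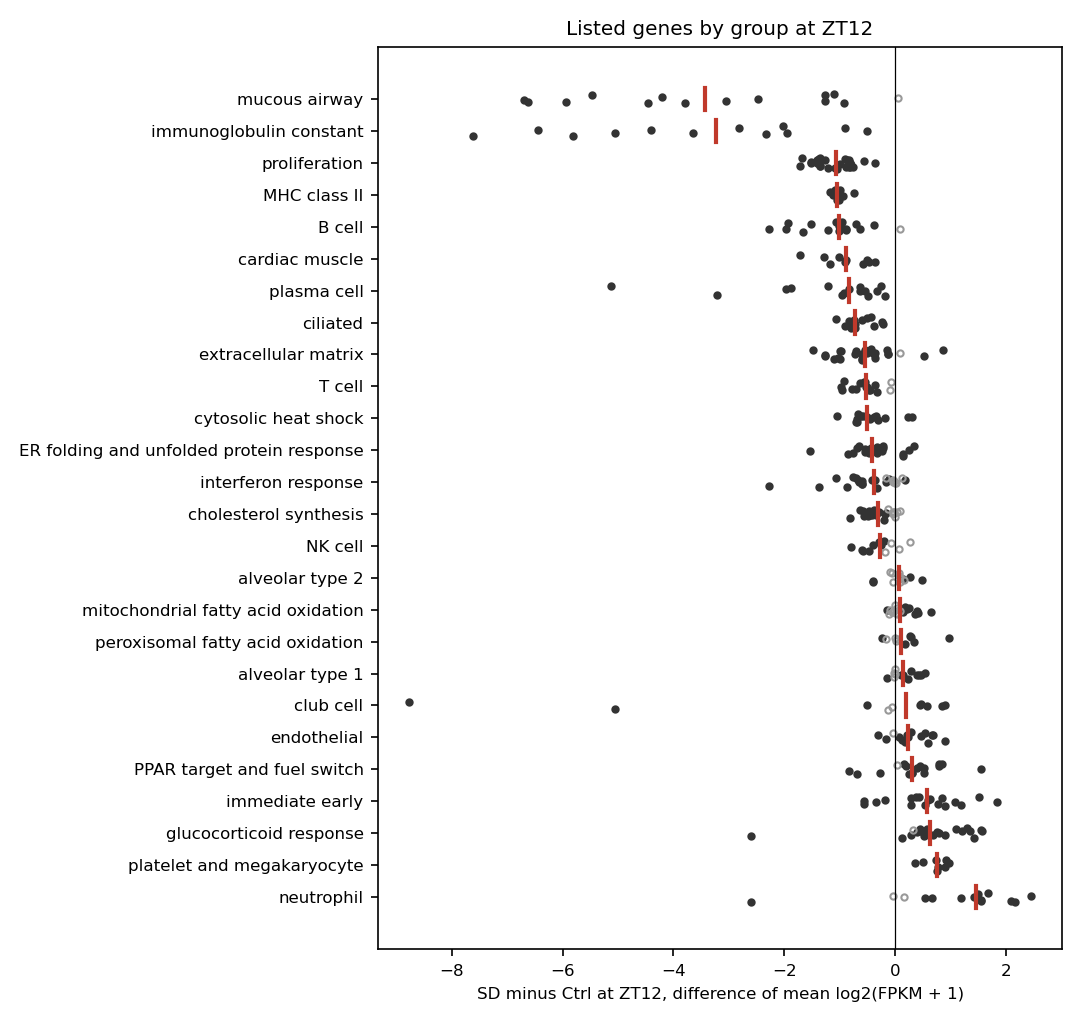
Difference SD minus Ctrl at ZT12 in mean log2(FPKM + 1) for the tested genes of the lists named on the vertical axis, 1 point per gene, filled where called and open where not, with the list median as a bar. Mucous airway and immunoglobulin genes lie furthest to the left (medians -3.43 and -3.23) and neutrophil genes furthest to the right (median 1.46).

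Cell-cycle genes fell without exception in their list. All 28 tested proliferation genes were lower in SD lungs, with a median of -1.07. Mki67, the marker of cycling cells, stood at 2.88, 2.56 and 2.45 FPKM in SD lungs, against 8.84, 8.9 and 8.22 FPKM in Ctrl lungs (-1.41 ± 0.0632, adjusted p = 1.31e-18). Top2a, the topoisomerase of dividing cells, averaged 1.48 ± 0.108 FPKM in SD lungs and 7.17 ± 0.142 FPKM in Ctrl lungs, Cdk1, the kinase that starts mitosis, 1.03 ± 0.188 FPKM in SD lungs and 4.76 ± 0.121 FPKM in Ctrl lungs, and Mcm6, a subunit of the replicative helicase, 6.82 ± 0.32 FPKM in SD lungs and 13.3 ± 0.29 FPKM in Ctrl lungs. Ctrl lungs at ZT12 held the second highest of the 14 group means for each of these 4 genes, while the SD means at ZT12 ranked 7th to 10th. For Mki67 the highest mean was that of Ctrl lungs at ZT16, 16.2 FPKM. B and plasma cell genes fell in the same libraries, and the part of dividing lymphocytes in this result was not tested.

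Promoters of late cell-cycle genes are known for CCAAT boxes and for a CHR, the site through which the DREAM complex and MYB-MuvB act. RefSeq promoter windows of GRCm38.p6 (the mm10 assembly), from 250 bases before to 50 bases after the start, were found for 23 of the 28 genes. On either strand TTTGAA was found in 12 of the 23, against 18.1% of 27025 promoters of the same length, and CCAAT in 20 of the 23, against 37.9%. Those of Cdk1 (chr10:69352863-69353162, minus strand) and of Ccnb2, the cyclin partner of Cdk1 (chr9:70421505-70421804, minus strand), are shown because both genes fell and both windows hold TTTGAA, in capitals. Ccnb2 was picked for its promoter and averaged 2.4 FPKM in SD lungs and 8.68 FPKM in Ctrl lungs. A match of letters is a description and not a site shown to be bound.
Cdk1: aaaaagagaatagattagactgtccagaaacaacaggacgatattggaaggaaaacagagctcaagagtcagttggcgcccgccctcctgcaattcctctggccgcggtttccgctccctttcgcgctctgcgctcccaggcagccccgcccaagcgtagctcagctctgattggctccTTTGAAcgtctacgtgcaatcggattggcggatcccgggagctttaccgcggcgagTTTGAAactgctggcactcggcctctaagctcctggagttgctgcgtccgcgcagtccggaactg
Ccnb2: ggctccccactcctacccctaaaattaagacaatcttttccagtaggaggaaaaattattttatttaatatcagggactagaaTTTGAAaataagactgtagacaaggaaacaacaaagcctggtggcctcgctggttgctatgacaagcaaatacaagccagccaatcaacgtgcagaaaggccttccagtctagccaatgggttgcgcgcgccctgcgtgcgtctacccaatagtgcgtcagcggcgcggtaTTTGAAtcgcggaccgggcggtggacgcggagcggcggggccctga

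Neutrophil genes rose. Of 14 tested genes of the list 11 rose, 9 of them by at least 1 in log2(FPKM + 1), and their median difference was 1.46. With Csf3r, Cxcr2 and Retnlg these included Mmp9, a gelatinase of neutrophil granules, at 14.9, 15.1 and 14.9 FPKM in SD lungs, against 4.58, 5.08 and 5.27 FPKM in Ctrl lungs (1.42 ± 0.0618). Lcn2, an iron-scavenging protein of neutrophils that airway cells also make, went the other way, at 60.8, 56.7 and 56.9 FPKM in SD lungs, against 365, 350 and 357 FPKM in Ctrl lungs (-2.60 ± 0.0486). SD lungs at ZT12 held the highest of the 14 group means for Csf3r and Cxcr2, and Ctrl lungs at ZT12 the lowest for Csf3r and the second lowest for Cxcr2. For Csf3r the means at the other times were 31 to 42.4 FPKM in SD lungs and 15.5 to 38.5 FPKM in Ctrl lungs.

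All 8 tested platelet and megakaryocyte genes rose, with a median of 0.76. Itga2b, the alpha chain of the platelet fibrinogen receptor, stood at 8.52, 8.55 and 8.58 FPKM in SD lungs, against 4.35, 3.97 and 4.11 FPKM in Ctrl lungs (0.89 ± 0.0566). Ppbp, a platelet chemokine, averaged 27.6 FPKM in SD lungs and 14.1 FPKM in Ctrl lungs, Gp9, a von Willebrand factor receptor subunit, 11.3 FPKM in SD lungs and 5.31 FPKM in Ctrl lungs, and Tubb1, the tubulin of platelets, 10.8 FPKM in SD lungs and 6.06 FPKM in Ctrl lungs. For these 4 genes SD lungs at ZT12 had the highest of the 14 group means. Red cell genes did not follow. Of 10 erythroid genes 4 fell and 1 rose. Hbb-bs, a beta globin with a near copy beside it, averaged 3080 FPKM in SD lungs and 4190 FPKM in Ctrl lungs, and Slc4a1, the anion exchanger of red cells, averaged 4.47 FPKM in SD lungs and 3.29 FPKM in Ctrl lungs. Whether blood left in the vessels took part in these changes was not tested.

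Genes of other myeloid cells split. Of 12 monocyte genes 7 fell and 4 rose. Plac8, high in classical monocytes, averaged 14.3 FPKM in SD lungs and 34.4 FPKM in Ctrl lungs (-1.21 ± 0.0587), and Ly6c2, the surface marker of classical monocytes, averaged 4.23 FPKM in SD lungs and 9.12 FPKM in Ctrl lungs (-0.95 ± 0.063). Those that rose were Nr4a1, needed for nonclassical monocytes and also an immediate early gene (0.77 ± 0.0444), Ace, the angiotensin-converting enzyme that lung endothelium makes as well (0.61 ± 0.0427), Treml4 (0.26 ± 0.107, with the call lost in 6 of the 14 other settings at an adjusted p of 0.0744 to 0.17) and F13a1, a coagulation factor subunit (0.55 ± 0.0487). Of 13 alveolar macrophage genes 7 fell and 2 rose, with a median of -0.26. Plet1 averaged 17.7 FPKM in SD lungs and 53.9 FPKM in Ctrl lungs, and Chil3, a chitinase-like protein, averaged 353 FPKM in SD lungs and 516 FPKM in Ctrl lungs, while Lpl, lipoprotein lipase, averaged 36.8 FPKM in SD lungs and 13.9 FPKM in Ctrl lungs. Genes of interstitial macrophages moved both ways, with Ccl8, a monocyte-attracting chemokine, at 3.18 FPKM in SD lungs and 54.2 FPKM in Ctrl lungs, C1qb, a complement subunit, at 21.4 FPKM in SD lungs and 60.1 FPKM in Ctrl lungs, and Lyve1, a hyaluronan receptor also found on lymphatic vessels, at 146 FPKM in SD lungs and 73 FPKM in Ctrl lungs. Of 10 dendritic cell genes 7 fell, led by Fscn1, an actin bundler of mature dendritic cells (7.71 FPKM in SD lungs and 21.1 FPKM in Ctrl lungs).

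Immediate early genes, which are switched on within minutes by growth factors, neural input or stress, rose in 14 of 18 cases and fell in 4, with a median of 0.57. Fos stood at 64.9, 64.1 and 66.7 FPKM in SD lungs, against 16.9, 16.6 and 19.2 FPKM in Ctrl lungs (1.84 ± 0.0362, adjusted p = 2.13e-28). Egr1, a zinc finger transcription factor, stood at 25.9, 26 and 25.8 FPKM in SD lungs, against 8.2, 8.42 and 8.45 FPKM in Ctrl lungs (1.52 ± 0.0444). Btg2, an antiproliferative gene, averaged 118 FPKM in SD lungs and 55.3 FPKM in Ctrl lungs, and Cyr61, a matricellular protein, averaged 192 FPKM in SD lungs and 83.2 FPKM in Ctrl lungs. The SD means of these 4 genes at ZT12 ranked 7th or 8th of the 14 groups, whereas the Ctrl means were the lowest of the 14 for Fos, Egr1 and Btg2 and the second lowest for Cyr61. The 4 that fell were low in both groups. They were Egr2 (1.53 FPKM in SD lungs and 2.22 FPKM in Ctrl lungs), Egr3 (0.669 FPKM in SD lungs and 1.46 FPKM in Ctrl lungs), Nr4a3 (0.261 FPKM in SD lungs and 0.863 FPKM in Ctrl lungs) and Atf3 (3.47 FPKM in SD lungs and 4.08 FPKM in Ctrl lungs). The call of Atf3 was lost without SD replicate 1 or 2 or Ctrl replicate 2 or 3 (adjusted p = 0.0543 to 0.0852, limma).

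Chaperone genes were lower in SD lungs. Of 15 cytosolic heat shock genes, 13 fell and 2 rose, with a median of -0.51. Hsph1, a cochaperone of HSP70, stood at 5.42, 6.09 and 5.62 FPKM in SD lungs, against 13.1, 12.7 and 12.9 FPKM in Ctrl lungs (-1.05 ± 0.0474). Hspa8, the constitutive HSP70, averaged 180 ± 5.29 FPKM in SD lungs and 291 ± 2.74 FPKM in Ctrl lungs, and Hsp90aa1, the inducible HSP90, averaged 82 ± 3.74 FPKM in SD lungs and 134 ± 4.96 FPKM in Ctrl lungs. The 2 that rose were Hspb1, a small heat shock protein (114 FPKM in SD lungs and 92.6 FPKM in Ctrl lungs), and Bag3, its partner in selective autophagy (24.8 FPKM in SD lungs and 20.9 FPKM in Ctrl lungs). Of 20 genes of protein folding in the endoplasmic reticulum, 16 fell and 4 rose, with a median of -0.41.

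Hspa5, the main HSP70 of the endoplasmic reticulum, stood at 68.4, 70 and 70.9 FPKM in SD lungs, against 117, 119 and 122 FPKM in Ctrl lungs (-0.77 ± 0.0368). Calr, the lectin chaperone calreticulin, averaged 88.4 FPKM in SD lungs and 143 FPKM in Ctrl lungs, Pdia4, a disulphide isomerase, 31.8 FPKM in SD lungs and 57.9 FPKM in Ctrl lungs, and Sdf2l1, a cofactor of Hspa5, 10.2 FPKM in SD lungs and 31.3 FPKM in Ctrl lungs. The 4 that rose were Herpud1 (0.34 ± 0.027), Ddit3 (0.24 ± 0.0602), Atf4 (0.15 ± 0.0359) and Dnajb9 (0.15 ± 0.0529), of which Ddit3 and Atf4 belong to the PERK arm of the stress response. The call of Dnajb9 was lost with total reads, without SD replicate 1 and without Ctrl replicate 3 (adjusted p = 0.063 to 0.118). Plasma cell genes, which include the folding genes Txndc5, Creld2 and Derl3, fell in the same libraries, and their part in the fall of the folding list was not tested. The cold-inducible RNA-binding protein gene Cirbp rose, with 53.4, 49.9 and 53.8 FPKM in SD lungs, against 28.7, 25.2 and 27.1 FPKM in Ctrl lungs (0.93 ± 0.0598), while its relative Rbm3 fell, with 37.5 FPKM in SD lungs and 42.4 FPKM in Ctrl lungs (-0.17 ± 0.033).

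Promoter windows of Hsph1 (chr5:149636287-149636586, minus strand), Hspa5 (chr2:34771840-34772139, plus strand) and Calr (chr8:84846882-84847181, minus strand) are shown because these genes fell and their windows hold the letters of the element through which their stress response is known to act. Capitals mark in Hsph1 a heat shock element, searched as GAA, TTC and GAA with any 2 bases between neighbours, and in Hspa5 and Calr the endoplasmic reticulum stress element, searched as CCAAT and CCACG with any 9 bases between them, both on either strand. The heat shock element was in 3 of 12 windows of the heat shock list, those of Hsph1, Hspe1 and Chordc1, against 0.529% of all 27025. The stress element was in 7 of 18 windows of the folding list, against 0.13% of all. It contains the CCAAT counted above.
Hsph1: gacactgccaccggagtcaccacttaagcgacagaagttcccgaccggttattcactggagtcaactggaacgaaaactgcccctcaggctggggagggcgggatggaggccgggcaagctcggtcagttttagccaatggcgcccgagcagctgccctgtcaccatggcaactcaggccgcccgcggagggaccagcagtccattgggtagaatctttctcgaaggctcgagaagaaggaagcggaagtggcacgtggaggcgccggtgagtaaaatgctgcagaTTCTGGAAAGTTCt
Hspa5: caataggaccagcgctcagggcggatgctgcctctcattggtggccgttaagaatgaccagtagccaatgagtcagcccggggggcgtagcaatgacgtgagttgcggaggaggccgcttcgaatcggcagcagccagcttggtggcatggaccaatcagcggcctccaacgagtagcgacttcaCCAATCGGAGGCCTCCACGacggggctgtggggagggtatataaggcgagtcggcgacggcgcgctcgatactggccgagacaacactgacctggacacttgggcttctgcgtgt
Calr: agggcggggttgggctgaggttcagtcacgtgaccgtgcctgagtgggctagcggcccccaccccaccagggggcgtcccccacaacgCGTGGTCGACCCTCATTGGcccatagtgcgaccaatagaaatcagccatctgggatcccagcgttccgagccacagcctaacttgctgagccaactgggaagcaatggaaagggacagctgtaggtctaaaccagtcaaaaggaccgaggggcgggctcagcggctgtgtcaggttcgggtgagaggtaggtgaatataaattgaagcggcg

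Genes that respond to glucocorticoids rose in SD lungs at ZT12. Of 22 tested genes of the list 20 rose and 1 fell, with a median of 0.63. Fkbp5, a cochaperone that dampens the glucocorticoid receptor, stood at 13.9, 14.2 and 14.4 FPKM in SD lungs, against 7.32, 6.77 and 7.42 FPKM in Ctrl lungs (0.89 ± 0.044, adjusted p = 1.61e-17). Tsc22d3, which encodes the anti-inflammatory factor GILZ, averaged 155 ± 2.55 FPKM in SD lungs and 104 ± 1.69 FPKM in Ctrl lungs, and Zbtb16, a transcription factor, averaged 30.5 ± 1.37 FPKM in SD lungs and 17.7 ± 0.793 FPKM in Ctrl lungs. The Ctrl level of Zbtb16 at ZT12 was above its other Ctrl means, which were 0.776 to 3.65 FPKM, and Fkbp5 was likewise at 7.17 FPKM in Ctrl lungs at ZT12, against 1.44 to 3.37 FPKM in Ctrl lungs at the other times.

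The largest rises of the list were those of Galnt15, a mucin-type glycosyltransferase (1.57 ± 0.0625), Angptl4, an inhibitor of lipoprotein lipase (1.55 ± 0.0676), Map3k6, a stress kinase (1.42 ± 0.0629), Fam107a, an actin-binding stress gene (1.35 ± 0.0773), Tat, tyrosine aminotransferase (1.30 ± 0.072), and Dusp1, a phosphatase of MAP kinases (1.21 ± 0.0283). Rgcc, a cell-cycle regulator of endothelium, averaged 468 FPKM in SD lungs and 219 FPKM in Ctrl lungs, and Cdkn1a, which encodes the cell-cycle inhibitor p21, averaged 31.6 FPKM in SD lungs and 19.3 FPKM in Ctrl lungs. Smaller rises were those of Pdk4, Cebpd, Errfi1, Klf9, Nfkbia, Ddit4, Per1, Mt1 and Sgk1, from 0.12 (Sgk1) to 0.79 (Pdk4). The calls of Sgk1 and Mt1 each depended on 1 library or more. Without SD replicate 2 the adjusted p was 0.0575 for Sgk1 and 0.0583 for Mt1, without Ctrl replicate 3 it was 0.0761 for Sgk1, and with scaling to total reads it was 0.15 for Sgk1. Mt2, the second metallothionein, averaged 1.47 FPKM in SD lungs and 0.98 FPKM in Ctrl lungs with overlapping values and was not called, and Lcn2 fell as given above.

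The receptor gene itself, Nr3c1, was not called, with overlapping values of 19.1, 18.6 and 19.5 FPKM in SD lungs and 18.6, 19.5 and 18.8 FPKM in Ctrl lungs (0.01 ± 0.0403, adjusted p = 0.893). The mineralocorticoid receptor Nr3c2 averaged 2.01 FPKM in SD lungs and 1.76 FPKM in Ctrl lungs and was not called. Hsd11b1, which regenerates active corticosterone, rose (0.40 ± 0.0568), and Hsd11b2, which inactivates it, fell (-0.45 ± 0.126), with 1.13 FPKM in SD lungs and 1.91 FPKM in Ctrl lungs.

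Clock genes of the repressor arm and their outputs rose by moderate amounts. Of the activators, Arntl averaged 0.597 ± 0.118 FPKM in SD lungs and 0.716 ± 0.0886 FPKM in Ctrl lungs (-0.105 ± 0.058, not called), and Clock 4.04 ± 0.275 FPKM in SD lungs and 4.1 ± 0.364 FPKM in Ctrl lungs (not called). Npas2, which can replace Clock, fell, with 0.65, 0.404 and 0.464 FPKM in SD lungs, against 1.04, 1.08 and 0.986 FPKM in Ctrl lungs (-0.44 ± 0.073). The levels of Arntl in both groups at ZT12 were the lowest 2 of the 14 group means. Of the repressors, 5 of 6 rose. Per1 stood at 58.3, 51.8 and 56 FPKM in SD lungs, against 37.5, 37 and 39 FPKM in Ctrl lungs (0.54 ± 0.0509). Cry2 averaged 18.6 FPKM in SD lungs and 12.7 FPKM in Ctrl lungs (0.52 ± 0.0388), and Ciart, a repressor of the activator pair, averaged 18.7 FPKM in SD lungs and 13.5 FPKM in Ctrl lungs (0.45 ± 0.0776).

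Per2 averaged 37.3 FPKM in SD lungs and 29.4 FPKM in Ctrl lungs (0.33 ± 0.0581), and Per3 averaged 22.6 FPKM in SD lungs and 17.7 FPKM in Ctrl lungs (0.33 ± 0.0477). For both, SD lungs at ZT12 had the highest and Ctrl lungs at ZT12 the second highest of the 14 group means. Cry1 averaged 10.4 FPKM in SD lungs and 9.54 FPKM in Ctrl lungs and was not called. Among the nuclear receptors, Nr1d1, which encodes the repressor REV-ERB alpha, stood at 32.2, 31.8 and 30.6 FPKM in SD lungs, against 18.3, 18.3 and 17.8 FPKM in Ctrl lungs (0.76 ± 0.054, adjusted p = 1.47e-13), and Nr1d2 and Rora rose by 0.31 and 0.32 on the log2 scale. Nfil3, a repressor in the output arm, was not called, with 4.28 FPKM in SD lungs and 4.5 FPKM in Ctrl lungs.

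Among the output factors, Tef, a PAR bZIP activator, stood at 85.6, 85.8 and 84 FPKM in SD lungs, against 52.2, 51.5 and 51.7 FPKM in Ctrl lungs (0.71 ± 0.0336, adjusted p = 6.47e-18). Its relatives Dbp and Hlf rose by 0.36 and 0.35 on the log2 scale. Bhlhe41, a repressor that binds E-boxes, averaged 4.41 FPKM in SD lungs and 2.58 FPKM in Ctrl lungs (0.60 ± 0.0623), whereas its close relative Bhlhe40 fell, with 12.8 FPKM in SD lungs and 15.6 FPKM in Ctrl lungs (-0.26 ± 0.0351). The clock activators bind the E-box CACGTG. It was found in 5 of 16 promoter windows of the clock genes, those of Bhlhe41, Ciart, Cry1, Per1 and Tef, against 7.24% of all 27025. The windows of Tef (chr15:81802423-81802722, plus strand) and Ciart (chr3:95882179-95882478, minus strand) are shown with the E-boxes in capitals, as 2 of the genes that rose.
Tef: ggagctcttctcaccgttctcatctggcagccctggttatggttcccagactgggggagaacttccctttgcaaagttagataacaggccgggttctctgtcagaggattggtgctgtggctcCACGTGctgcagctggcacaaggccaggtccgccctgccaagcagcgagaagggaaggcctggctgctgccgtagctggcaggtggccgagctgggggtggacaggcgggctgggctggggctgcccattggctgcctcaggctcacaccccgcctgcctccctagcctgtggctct
Ciart: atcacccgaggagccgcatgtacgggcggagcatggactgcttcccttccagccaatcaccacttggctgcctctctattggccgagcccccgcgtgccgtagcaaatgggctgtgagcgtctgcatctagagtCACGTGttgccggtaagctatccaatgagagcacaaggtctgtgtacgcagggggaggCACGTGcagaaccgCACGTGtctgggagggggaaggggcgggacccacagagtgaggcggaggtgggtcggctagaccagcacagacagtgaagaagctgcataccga

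**Figure D3:**
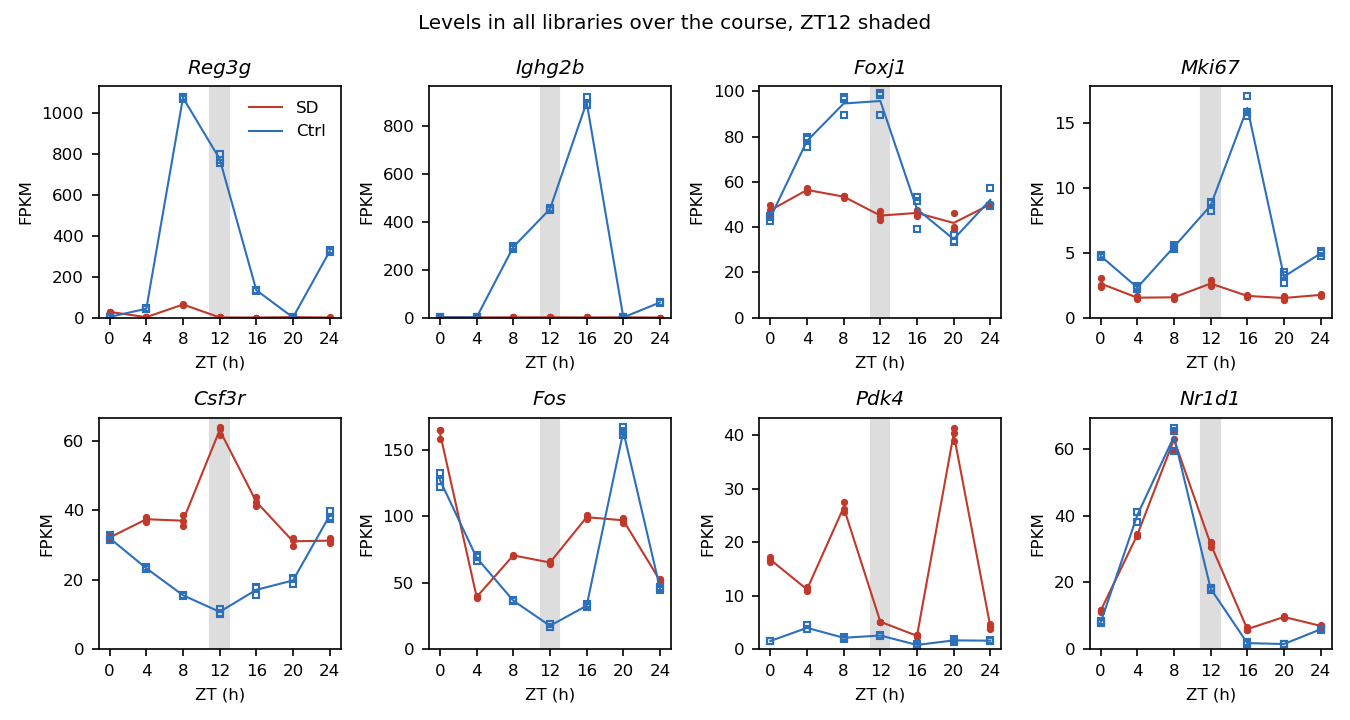
FPKM of 8 genes in each library against ZT in h, SD filled and Ctrl open, with lines through the group means and ZT12 shaded. At ZT12 Reg3g, Ighg2b, Foxj1 and Mki67 are lower in SD lungs and Csf3r, Fos, Pdk4 and Nr1d1 are higher.

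Fatty acid oxidation genes showed a small and uneven rise. Of 19 mitochondrial genes tested 9 rose and 1 fell, with a median of 0.08, and of 10 peroxisomal genes 5 rose and 1 fell, with a median of 0.11. Cpt1a, the rate-limiting step of carnitine-dependent entry, stood at 33.5, 33.3 and 34.1 FPKM in SD lungs, against 21.4, 21.2 and 20.4 FPKM in Ctrl lungs (0.65 ± 0.0366, adjusted p = 4.06e-16). The other mitochondrial genes that rose were Etfb, an electron carrier (0.41 ± 0.12), Eci2, an enoyl isomerase (0.39 ± 0.053), Acaa2, a thiolase (0.36 ± 0.0433), the acyl dehydrogenases Acadl (0.26 ± 0.0351), Acadm (0.19 ± 0.0528) and Acadvl (0.15 ± 0.0537), the carnitine carrier Slc25a20 (0.22 ± 0.0531) and Hadh (0.17 ± 0.0553). The values of Acadvl overlapped between the groups, and its call was lost without SD replicate 1 or 3, without Ctrl replicate 2 or 3, with total reads and in the 6 libraries alone (adjusted p = 0.0654 to 0.138). That of Hadh was lost without SD replicate 1 (adjusted p = 0.0579).

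Hadha, the alpha subunit of the trifunctional protein, was the mitochondrial gene that fell, with 13.4, 13.4 and 13 FPKM in SD lungs, against 15.4, 14.7 and 14.2 FPKM in Ctrl lungs (-0.15 ± 0.0333). Cpt2, Acads, Hadhb, Echs1, Eci1, Decr1, Etfa, Etfdh and Acsl1 were not called, with differences from -0.11 (Acads) to 0.08 (Hadhb). The muscle isoform Cpt1b was under the level needed for testing, at 0.151 FPKM in SD lungs and 0.227 FPKM in Ctrl lungs. Among the peroxisomal genes Acaa1b, a thiolase with a close paralog, averaged 12.2 FPKM in SD lungs and 5.7 FPKM in Ctrl lungs (0.98 ± 0.0579). Pex11a, which divides peroxisomes, and Acaa1a rose by 0.35 and 0.27 on the log2 scale. Acot8, a thioesterase, was called at an adjusted p of 0.0496, which rose to between 0.0501 and 0.261 under 9 of the 14 other settings. Crot, which hands chain-shortened acyl groups to carnitine, fell (-0.23 ± 0.0608), and Ehhadh, Hsd17b4, Abcd2 and Abcd3 were not called.

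Of 17 targets and partners of the PPAR receptors, 13 rose and 3 fell, with a median of 0.31. Pdk4, which blocks pyruvate entry into the citric acid cycle, stood at 5.08, 5.11 and 5.16 FPKM in SD lungs, against 2.59, 2.63 and 2.4 FPKM in Ctrl lungs (0.79 ± 0.0667). Acot1, an acyl-CoA thioesterase, averaged 12.1 FPKM in SD lungs and 6.28 FPKM in Ctrl lungs, and Txnip, a glucose-sensing inhibitor of thioredoxin, 238 FPKM in SD lungs and 165 FPKM in Ctrl lungs. The 3 that fell were the fatty acid binding protein and receptor genes Fabp4 (3.26 FPKM in SD lungs and 6.55 FPKM in Ctrl lungs), Fabp3 (13.6 FPKM in SD lungs and 22.7 FPKM in Ctrl lungs) and Pparg (3.19 FPKM in SD lungs and 4.05 FPKM in Ctrl lungs, with overlapping values). The call of Pparg was lost in the 6 libraries alone (adjusted p = 0.0661) and without SD replicate 1 (adjusted p = 0.0756).

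Lipid synthesis genes leaned the other way. Of 13 fatty acid synthesis genes 6 fell and 2 rose, with a median of -0.10. Scd1, the desaturase that makes oleate, stood at 114, 120 and 118 FPKM in SD lungs, against 238, 247 and 236 FPKM in Ctrl lungs (-1.03 ± 0.0252, adjusted p = 9.28e-26). Fasn, fatty acid synthase, averaged 29.4 FPKM in SD lungs and 39.8 FPKM in Ctrl lungs, Acly, which makes cytosolic acetyl-CoA, 24.6 FPKM in SD lungs and 31.5 FPKM in Ctrl lungs, and Fads2, a desaturase of polyunsaturated fatty acids, 10.3 FPKM in SD lungs and 16.4 FPKM in Ctrl lungs. Acacb, the carboxylase whose product restrains Cpt1a, rose (0.33 ± 0.0659), as did the elongase Elovl5 (0.14 ± 0.0298). Of 22 cholesterol synthesis genes 15 fell and none rose, with a median of -0.31. Cyp51, the sterol demethylase, averaged 6.91 FPKM in SD lungs and 13 FPKM in Ctrl lungs (-0.82 ± 0.0486), and Sqle, squalene epoxidase, averaged 6.66 FPKM in SD lungs and 10.4 FPKM in Ctrl lungs (-0.57 ± 0.0499). Stard4, a sterol carrier, fell by 0.63 on the log2 scale.

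Detoxifying enzymes of airway and alveolar cells rose. Of 15 cytochrome P450 and related genes 10 rose and 2 fell, with a median of 0.61. Cyp1a1, the enzyme induced through the aryl hydrocarbon receptor, averaged 70.4 ± 2.61 FPKM in SD lungs and 32.3 ± 1.28 FPKM in Ctrl lungs, and Cyp4b1, abundant in mouse lung, averaged 275 ± 8.62 FPKM in SD lungs and 128 ± 2 FPKM in Ctrl lungs. Cyp2a5 (17.2 FPKM in SD lungs and 30.9 FPKM in Ctrl lungs) and Cyp1b1 (2.49 FPKM in SD lungs and 2.92 FPKM in Ctrl lungs) fell, and the call of Cyp1b1 was lost without SD replicate 2 or 3 or Ctrl replicate 2 (adjusted p = 0.0508 to 0.0965). Of 17 NRF2 targets 8 rose and 3 fell. Gsta3, a glutathione transferase, averaged 68.4 FPKM in SD lungs and 31.9 FPKM in Ctrl lungs (1.07 ± 0.038), whereas Gclc, the rate-limiting enzyme of glutathione synthesis, fell, with 58.5 FPKM in SD lungs and 64.7 FPKM in Ctrl lungs.

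Alveolar and vascular genes showed smaller differences. Of 13 alveolar type 2 genes 3 rose and 2 fell, with a median of 0.07. Sftpb averaged 1850 FPKM in SD lungs and 1320 FPKM in Ctrl lungs, and Sftpd, a collectin of innate defence, averaged 362 FPKM in SD lungs and 475 FPKM in Ctrl lungs. Of 13 alveolar type 1 genes 8 rose and 1 fell, with Hopx, a homeodomain cofactor, at 388 FPKM in SD lungs and 267 FPKM in Ctrl lungs. Of 15 endothelial genes 12 rose and 2 fell, with a median of 0.23. Ramp2, the adrenomedullin coreceptor, averaged 177 FPKM in SD lungs and 94.8 FPKM in Ctrl lungs (0.89 ± 0.0458), and Vwf, von Willebrand factor, averaged 40.5 FPKM in SD lungs and 25 FPKM in Ctrl lungs. Of 11 genes of lung fluid transport 7 rose and 2 fell. The sodium channel subunits Scnn1b and Scnn1g rose by 0.66 and 0.40 on the log2 scale, and Aqp4, a water channel of airway cells, fell to 1.77 FPKM in SD lungs, against 7.74 FPKM in Ctrl lungs (-1.66 ± 0.0763).

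Matrix genes fell. Of 27 extracellular matrix genes 24 fell and 2 rose, with a median of -0.54. Col3a1, a fibrillar collagen, stood at 37.9, 38.8 and 38.3 FPKM in SD lungs, against 110, 110 and 106 FPKM in Ctrl lungs (-1.48 ± 0.0297, adjusted p = 3.32e-28). Col1a2 averaged 24 FPKM in SD lungs and 48.1 FPKM in Ctrl lungs, and Mmp2, a gelatinase of stromal cells, averaged 18.6 FPKM in SD lungs and 46.4 FPKM in Ctrl lungs. Lox, the collagen cross-linking enzyme, rose (0.53 ± 0.0509), and so did Spp1, osteopontin (0.87 ± 0.0375). Fibroblast genes were mixed, with 8 of 14 lower and 3 higher. Mfap4, a microfibril protein, averaged 227 FPKM in SD lungs and 637 FPKM in Ctrl lungs, while Inmt, a methyltransferase, averaged 1170 FPKM in SD lungs and 673 FPKM in Ctrl lungs. In smooth muscle and pericyte genes 7 of 13 rose and 3 fell, led by Pdgfrb, a receptor of pericytes (0.62 ± 0.0296).

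Markers of tissue next to the lung also differed. All 10 tested cardiac muscle genes, which the muscle sleeves of mouse pulmonary veins also express, fell, with a median of -0.89, and their summed level was 89.5 to 94.7 FPKM in SD lungs and 182 to 191 FPKM in Ctrl lungs. Myl7, an atrial myosin light chain, averaged 32.8 FPKM in SD lungs and 80.6 FPKM in Ctrl lungs. Of 7 adipocyte genes 4 fell and 1 rose, with summed levels of 27 to 28.7 FPKM in SD lungs and 58.1 to 60.1 FPKM in Ctrl lungs, and Adipoq, the adipocyte hormone adiponectin, averaged 0.255 FPKM in SD lungs and 2.3 FPKM in Ctrl lungs. Of 5 mesothelial genes 3 rose, Upk3b, Lrrn4 (0.92 ± 0.0736) and Upk1b (0.79 ± 0.0664), and 2 fell, Msln, mesothelin (-0.69 ± 0.0393), and Krt19 (-0.29 ± 0.0611). No gene of a cartilage and trachea list reached 0.5 FPKM, and its summed level was 0.531 to 0.566 FPKM in SD lungs and 0.825 to 0.943 FPKM in Ctrl lungs. The part of these tissues in the other results was not tested.

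Transcripts of the mitochondrial genome took 3.0 ± 0.141% of reads in SD lungs and 2.27 ± 0.148% in Ctrl lungs. Of 13 tested protein-coding genes on it 8 rose and none fell, with a median of 0.52. mt-Nd1, a subunit of complex I, averaged 3500 ± 196 FPKM in SD lungs and 2430 ± 140 FPKM in Ctrl lungs (0.53 ± 0.116). mt-Nd4l, another subunit of complex I, stood at 42.3, 34.5 and 24.8 FPKM in SD lungs, against 10.8, 15.3 and 17.4 FPKM in Ctrl lungs (1.16 ± 0.392, adjusted p = 0.014), with a wide spread and no overlap. Its call was lost without SD replicate 1 (adjusted p = 0.0668) or without Ctrl replicate 1 (adjusted p = 0.0692). These genes overlap or adjoin each other on a compact genome, so reads may be shared among them.

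The difference at ZT12 was then set against the mean of the SD minus Ctrl differences at the other 6 times. No library is shared between times. Across the 17080 genes the 2 quantities had a Pearson r of 0.682, a description over genes that share libraries. The r between ZT12 and a single time was 0.25 for ZT0, 0.25 for ZT4, 0.68 for ZT8, 0.72 for ZT16, 0.20 for ZT20 and 0.58 for ZT24. ZT12 departed from the other times in 5837 genes (34.2%), upward in 2631 (15.4%) and downward in 3206 (18.8%), at an adjusted p under 0.05 in limma. With scaling to total reads the departures numbered 3116 upward and 2817 downward. Of the 595 genes that changed at least 2-fold at ZT12, 507 departed, 417 of them falls with a downward departure and 75 of them rises with an upward one. Those genes were picked for a large difference at ZT12, so these counts are a description only.

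With immunoglobulin genes again passed over, the largest downward departures belonged to genes among the largest falls, Reg3g (-5.63), Gp2 (-4.39), Clca1 (-4.28), Itln1 (-4.20) and Bpifb1 (-3.66). For Reg3g the mean difference at the other times was -3.14, against -8.77 at ZT12. That mean covers unlike times. Reg3g averaged 0.234 FPKM in SD lungs and 134 FPKM in Ctrl lungs at ZT16, and 0.313 and 325 FPKM at ZT24. It was also lower in SD lungs at ZT4 and ZT8, and higher at ZT0 and ZT20. All 14 ciliated genes departed downward, with a median of -0.72 at ZT12 and -0.08 over the other times. So did 13 of 14 mucous genes and 10 of 12 immunoglobulin constant genes. The mucous median was -3.43 at ZT12, -2.35 at ZT16, -1.44 at ZT24, -1.27 at ZT8 and -0.48 at ZT4. It was 0.16 at ZT0 and 0.04 at ZT20. The ciliated median was also negative at ZT8 (-0.58), ZT4 (-0.40) and ZT24 (-0.03), and was positive at ZT0 (0.15), ZT16 (0.16) and ZT20 (0.27). The immunoglobulin median was -3.23 at ZT12, beside -3.15 at ZT8, a lower -4.68 at ZT16, -1.47 at ZT24 and -0.38, -0.39 and -0.19 at ZT0, ZT4 and ZT20. Of the proliferation genes 24 of 28 departed downward, with medians of -1.07 at ZT12 and -0.75 over the other times, but their median was lower still at ZT16, at -1.81.

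Upward departures, with the same kinds of genes passed over, were led by short or mitochondrial genes with few reads, mt-Tl2 (2.49), mt-Th (2.46) and Mir6905 (1.95), followed by Csf3r (1.87) and mt-Nd4l (1.86). The ZT12 calls of mt-Tl2, mt-Th and Mir6905 were each lost in 4 of the 14 other settings (adjusted p = 0.0566 to 0.172). All 8 platelet genes departed upward, with a median of 0.76 at ZT12 and -0.11 over the other times, as did 13 of 18 immediate early genes, 8 of 14 neutrophil genes and 10 of 13 mitochondrial genes. Of the neutrophil genes 2 departed downward. The neutrophil median was 1.46 at ZT12, 1.45 at ZT20 and 1.27 at ZT8, and lower at the remaining times, down to -0.66 at ZT24. The median of the immediate early genes was 0.57 at ZT12 and 0.61 at ZT16, and that of the mitochondrial genes was 0.52 at ZT12 and 0.61 at ZT20, so ZT12 was not the highest time for either. Egr1, for example, differed by 1.52 at ZT12 and by -0.24 over the other times. The mitochondrial median was lowest at ZT4, at -1.85, which lowers the mean of the other times. It was 0.27 at ZT0, -0.48 at ZT8, -0.25 at ZT16 and -0.16 at ZT24.

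Glucocorticoid response genes rose less at ZT12 than at the other times. Of the 22 genes 21 departed downward, and Dusp1 upward. The list median was 0.63 at ZT12, and it was 1.51, 0.70, 2.23, 0.90, 2.67 and 1.14 at ZT0, ZT4, ZT8, ZT16, ZT20 and ZT24. For Zbtb16 the difference was 0.75 at ZT12 and 2.54 over the other times, and for Cdkn1a 0.68 at ZT12 and 2.03 over the other times. Natural killer cell genes fell less at ZT12, with a median of -0.27, against -0.75 over the other times, and 10 of 12 departed upward. Their median fall was smaller still at ZT4 (-0.10) and larger at the remaining times. Among the clock genes Per1 rose less than at the other times (departure -0.80 ± 0.0549), Npas2 departed downward (-0.62), and Bhlhe41 and Dbp departed upward (0.71 and 0.55), whereas the departures of Nr1d1, Tef and Cry1 were not called.

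**Figure D4:**
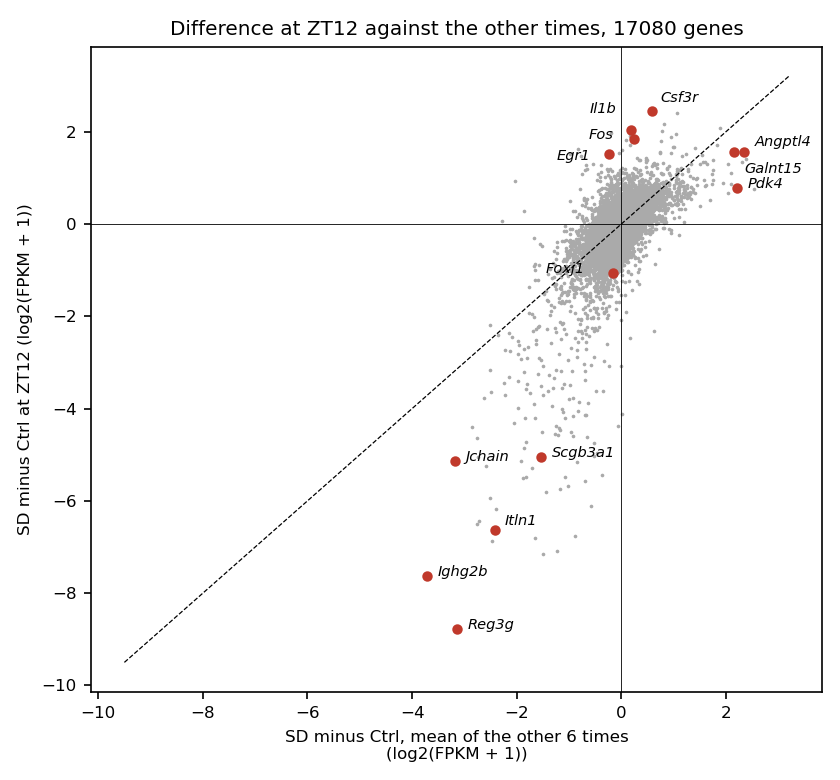
Difference SD minus Ctrl in log2(FPKM + 1) at ZT12 (vertical) against its mean over the other 6 times (horizontal) for 17080 genes, with named genes in red and the line of equality dashed. Reg3g, Itln1 and Scgb3a1 lie below the line and Csf3r, Il1b, Fos and Egr1 above it, while Pdk4 and Angptl4 rise at ZT12 by less than at the other times.

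**Figure D5:**
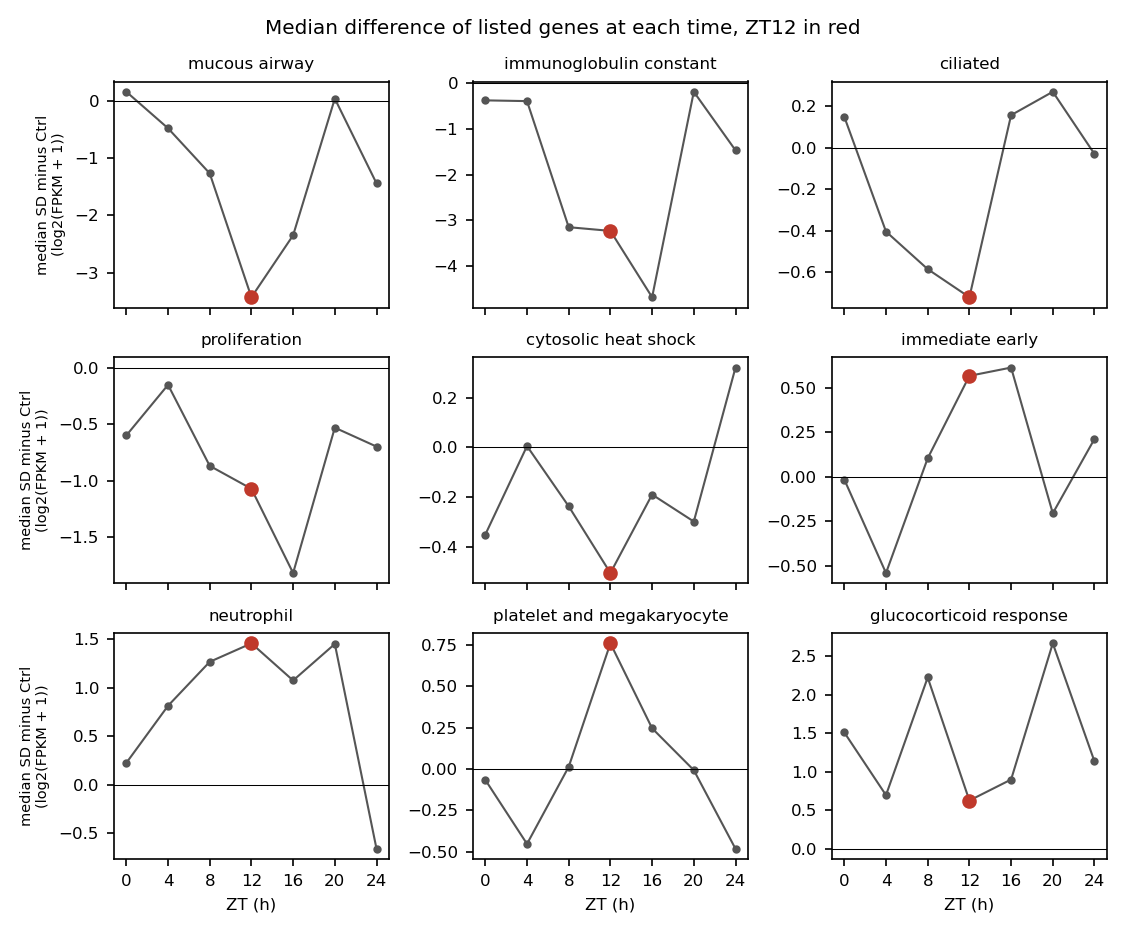
Median difference SD minus Ctrl in log2(FPKM + 1) of the tested genes of 9 lists at each ZT in h, with ZT12 in red. The medians at ZT12 are the lowest of the course for mucous airway (-3.43), ciliated (-0.72), cytosolic heat shock (-0.51) and glucocorticoid response genes (0.63) and the highest for neutrophil (1.46) and platelet genes (0.76). The neutrophil median at ZT20 (1.45) is close to that at ZT12.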

How the data were processed

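Mouse lung RNA was sequenced in 42 libraries, 3 for each of 2 housing groups at 7 times. The deposited values are FPKM made by the authors for each gene and library. The submitters' processing notes name HISAT2 2.0.5, featureCounts 1.5.0-p3 and build mm10; settings, strand and multiply mapped reads are not described there. FPKM times gene length gave whole reads for 99.94% to 100% of values in each library (within 0.1 of a read), and the scaling factors behind the FPKM matched median-of-ratios size factors to 8.54e-05 in log units, so the values carry that scaling. Symbols of 27 genes that had become dates were restored from gene IDs.

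The 17080 genes with a mean of at least 0.5 FPKM over the 6 ZT12 libraries were tested with limma 3.58.1 (R 4.3.3, lmFit and eBayes with trend) on log2(FPKM + 1), with 14 group means, two-sided, adjusted by Benjamini-Hochberg. Contrasts were SD minus Ctrl at ZT12, and that difference minus its mean over the other 6 times (the departure). The fit was also run on simulated reads in which far fewer genes changed at ZT12 than were called here. That run gave all libraries the same scaling, so it does not bear on the choice of scaling. Other tools were the data.table package (version 1.17.8), pandas 2.3.3 and Python 3.11.15, with counting intervals (95%, exact) from scipy 1.17.1. Libraries of a group differed by more than sampling noise.

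The members and the 58 gene lists (726 of 730 symbols in the table) were chosen with earlier results of these data known. Named were the 10 largest rises and falls with a mean of at least 1 FPKM and no overlap, and the 5 largest departures each way. Both rankings passed over predicted genes, antigen receptor genes (those of antibodies and of T cells) and pseudogenes. Also named were all genes of the clock, glucocorticoid, fat oxidation and immunoglobulin constant lists. For each other list the tested genes with the smallest p were named, called or not, and the called genes against the list's direction. A symbol borne by several gene IDs stands for the ID with the highest mean. Alternatives were another pseudocount, filter and scaling, array weights, a replicate block, the 6 libraries alone, each library left out, and other sets of reference times. Precision is limited by 3 libraries a group and, for genes with few reads, by counting error. Some genes that these rules name are not reported here.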

Additional observations from a re-analysis of the deposited data

Results flagged for a closer look

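The SD minus Ctrl difference at ZT12 was itself tested against the mean of the differences at the other 6 times. It was higher at ZT12 for 2631 genes and lower for 3206 genes at an adjusted p under 0.05 in limma, and 227 of the 323 named and tested genes were called at ZT12 and also departed. Of the 4472 genes called at ZT12 that departed, 1188 had the opposite sign over the other times.

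Named genes with opposite signs and a departure of at least 1 in log2(FPKM + 1) fell into a few groups. Among the immediate early genes these were Egr1 (1.52 at ZT12 and -0.24 over the other times, a departure of 1.76), Nr4a1 (0.77 at ZT12 and -0.78 over the other times, a departure of 1.55) and Cyr61 (1.2 at ZT12 and -0.21 over the other times, a departure of 1.41). Among the platelet genes they were Ppbp (0.92 at ZT12 and -0.41 over the other times, a departure of 1.33) and Tubb1 (0.75 at ZT12 and -0.42 over the other times, a departure of 1.17). Cyp1a1, the aryl hydrocarbon receptor target, had 1.10 at ZT12 and -0.01 over the other times, a departure of 1.11.

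Genes that fell at ZT12 and were higher over the other times were Chil3 of alveolar macrophages (-0.55 at ZT12 and 0.72 over the other times, a departure of -1.27), Cyp2a5 (-0.81 at ZT12 and 0.34 over the other times, a departure of -1.15) and Msln of mesothelium (-0.69 at ZT12 and 0.42 over the other times, a departure of -1.11).

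Short genes with few reads or on the mitochondrial genome were mt-Tl2 (departure 2.49, -0.97 over the other times), mt-Th (departure 2.46, -0.82 over the other times), Mir6905 (departure 1.95, -0.67 over the other times) and mt-Nd4l (departure 1.86, -0.70 over the other times). mt-Tl2 stood at 11.2, 7.2 and 8.22 FPKM in SD lungs, against 3.57, 0.955 and 3.4 FPKM in Ctrl lungs. What lies behind these departures was not tested.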

How the results depend on the processing

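The number of genes called at ZT12 was 3392 to 4471 for higher and 4012 to 4969 for lower under settings that kept all 6 libraries, beside 4173 and 4289. With each library left out in turn it was 3751 to 3832 for higher and 3962 to 4043 for lower. With a pseudocount of 0.1 in place of 1, 287 genes rose and 904 fell by at least 2-fold, beside 112 and 483. The other settings gave 107 to 125 and 446 to 531. The smaller pseudocount compresses low levels less by its construction. Departures numbered 2253 to 3360 upward and 2817 to 3973 downward. The highest values, 3360 and 3973, came from ZT0, ZT4 and ZT20 alone, a choice made after seeing the data because Ctrl lungs at the left-out times also carried plasma cell and mucous genes. Scaling to total reads gave 3392 genes higher and 4969 lower, and 3116 upward and 2817 downward departures, and shifted the median difference by -0.0373.

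Of 323 named and tested genes, 298 were called. Of these, 279 were called under all 14 alternatives, 19 lost the call in at least 1, and none reversed. No median of the 55 lists with a tested gene changed sign. Same-numbered SD and Ctrl libraries did not pair (correlations of their deviations 0.056, 0.077 and -0.008, 2 of 3 matching best with their own number). With a replicate block 4184 genes were higher, 4300 lower, and no call of a named gene changed.

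Genes that were not called changed sign in places, and the cause was not tested. With total reads the differences were -0.038 for Nr3c1, -0.00501 for Echs1, -0.00077 for Decr1, -0.0216 for Acsl1, -0.0214 for Ehhadh and -0.00354 for Hsd17b4. With array weights they were 0.01 for Clock and 0.00413 for Abcd3. Leaving out each library gave -0.0459 to 0.0443 for Clock, -0.139 to 0.059 for Nfil3, -0.00746 to 0.028 for Nr3c1, -0.096 to 0.0407 for Cpt2, -0.0728 to 0.0196 for Etfa, -0.035 to 0.0227 for Etfdh, -0.0121 to 0.0407 for Acsl1, -0.0658 to 0.0857 for Ehhadh, -0.0441 to 0.0339 for Abcd3 and -0.00736 to 0.283 for Mylpf. With 3 libraries a group, differences as small as these are known with limited precision. Over the 3 SD libraries Nfil3 had 715 reads and Ehhadh 747, while Clock had 4574 and Nr3c1 11679.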

Other observations

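The genes below were picked after their values were seen. Antimicrobial proteins beyond the mucous list also fell in SD lungs at ZT12. Ltf, lactoferrin, stood at 11, 10.8 and 10.8 FPKM in SD lungs, against 143, 146 and 144 FPKM in Ctrl lungs (-3.62, adjusted p = 1.66e-31 in limma). Pglyrp1, a peptidoglycan-binding protein of neutrophils and airway cells, averaged 18.6 FPKM in SD lungs and 114 FPKM in Ctrl lungs, Bpifa1, an airway surface protein, 1.44 FPKM in SD lungs and 21.1 FPKM in Ctrl lungs, and Orm1, an acute-phase protein, 0.798 FPKM in SD lungs and 12.2 FPKM in Ctrl lungs. Muc5ac, the second gel-forming mucin and itself a gene of the mucous list, averaged 0.1 FPKM in SD lungs and 14.3 FPKM in Ctrl lungs. The alarmins S100a8 and S100a9, which belong to the neutrophil list, differed by 1.54 and 1.67 in the other direction.

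Ccl20, a chemokine that draws CCR6-bearing lymphocytes, differed by -2.47 at ZT12 and by 0.17 over the other times. It was also lower in SD lungs at ZT8 (1.96 FPKM, against 12.9 FPKM in Ctrl lungs) and ZT16 (3.39 FPKM, against 10.4 FPKM). At ZT24 the means were 4.3 and 4.7 FPKM, and at ZT0, ZT4 and ZT20 Ccl20 was higher in SD lungs. Cyp26b1, which breaks down retinoic acid, differed by -2.32 at ZT12 and by 0.62 over the other times. It was also lower in SD lungs at ZT24 (4.99 FPKM, against 22.9 FPKM in Ctrl lungs). At the remaining times it was higher, most of all at ZT4 (45.7 FPKM, against 9.21 FPKM). Igfbp6, a binding protein of insulin-like growth factors, averaged 233 FPKM in SD lungs and 73.8 FPKM in Ctrl lungs at ZT12. Sult1a1, a phenol sulphotransferase, averaged 86.9 FPKM in SD lungs and 34.5 FPKM in Ctrl lungs, and Arl4d, a small GTPase, averaged 84.6 FPKM in SD lungs and 33.8 FPKM in Ctrl lungs.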
